A study of Mus musculus with 5 samples.

Results

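Gpx1 to Gpx8, the 8 genes of the mouse glutathione peroxidase family, were followed through 5 RNA-sequencing libraries labelled as visceral adipose tissue of male C57BL/6 mice. The members were taken by gene symbol, and all 8 were found among the 78334 genes of the count table. The control group had 1 library, from standard chow and vehicle. The diabetes group had 2 libraries, from mice injected once, when 2 days old, with 70 mg/kg of streptozotocin, which kills insulin-producing cells. From 3 weeks of age these mice ate a high-fat diet (60% of kcal) for 8 weeks, and they received vehicle. The curcumin-treated group had 2 libraries, from mice given the same toxin and diet and then curcumin, a turmeric polyphenol, by gavage at 50 mg/kg daily for 28 days from 11 weeks of age. Diabetes in this model thus combines a neonatal loss of insulin-producing cells with a fatty diet. Nothing in the labels ties a library to an animal, so p-values below measure only the spread between libraries, part of which may be technical.

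Glutathione peroxidases reduce hydrogen peroxide and lipid hydroperoxides at the expense of glutathione, which glutathione reductase then regenerates. The best known members carry selenocysteine in the active site, an amino acid written by a UGA codon that otherwise ends translation, and others carry cysteine there. Gpx1 is the ubiquitous cytosolic enzyme, Gpx2 that of the gut epithelium, Gpx3 the secreted plasma form, and Gpx4 the enzyme that repairs phospholipid hydroperoxides in membranes and restrains ferroptosis. Gpx5 is secreted by the androgen-dependent epithelium of the epididymis, the duct that stores sperm and lies along the gonadal fat of males. Gpx6 is known from olfactory epithelium, and Gpx7 and Gpx8 reside in the endoplasmic reticulum.

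The active-site codon divides the family into selenium-dependent and selenium-independent members, and it is shown here because that division orders the comparison. Each line gives the coding strand from 21 bases before to 21 bases after this codon, read by transcript name from GENCODE vM21 (GRCm38), with the codon in capitals.
Gpx1: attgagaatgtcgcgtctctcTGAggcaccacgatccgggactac
Gpx2: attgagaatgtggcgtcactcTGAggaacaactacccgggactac
Gpx3: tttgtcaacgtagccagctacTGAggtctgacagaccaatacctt
Gpx4: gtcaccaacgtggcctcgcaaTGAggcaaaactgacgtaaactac
Gpx5: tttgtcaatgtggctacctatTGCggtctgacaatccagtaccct
Gpx6: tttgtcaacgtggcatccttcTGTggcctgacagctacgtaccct
Gpx7: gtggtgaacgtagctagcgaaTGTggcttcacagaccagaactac
Gpx8: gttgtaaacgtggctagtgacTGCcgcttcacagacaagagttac

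Gpx1 to Gpx4 have the selenocysteine codon TGA, which the annotation marks as such in all 4, and Gpx5 to Gpx8 have a cysteine codon, TGC or TGT, at the aligned place. Gpx3, Gpx5 and Gpx6 carry it as codon 73, in exon 2 of 5. The translated codons of Gpx5 were identical to those of Gpx3 at 65.6% of 221 aligned places and to those of Gpx6 at 63.8% of 221. Against Gpx4 the identity of Gpx5 was 30.9%. Gpx5 and Gpx6 lie on chromosome 13, as does Gpx8, while Gpx1 is on chromosome 9, Gpx2 on 12, Gpx3 on 11, Gpx4 on 10 and Gpx7 on 4. No 2 members shared a run of 50 bases in any annotated transcript. The longest shared run was 40 bases, between Gpx3 and Gpx5, and Gpx5 and Gpx6 shared 35. The pseudogenes Gpx2-ps1 and Gpx4-ps2 had 0 counts in every library.

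Libraries of 1 group held unlike tissue markers, which touches every value below. Total counts ran from 25378046 to 42422890. A list of 10 adipocyte genes took 2.38% of the counts of diabetes 2 and 0.306% of curcumin-treated 1, but 0.0478% of control 1, 0.0159% of curcumin-treated 2 and 0.0118% of diabetes 1, where the adipocyte regulator Pparg had 0 counts. Adipoq, the adipocyte hormone adiponectin, was at 1610 CPM (a gene's counts scaled to a library total of 1000000) in diabetes 2 and at 1.34 CPM in diabetes 1. A list of 15 genes of the epididymal epithelium, without Gpx5, took 4.87% of control 1, 4.50% of diabetes 1, 5.97% of curcumin-treated 2 and 0.602% of curcumin-treated 1, and 12 counts in all of diabetes 2, where 11 of the 15 were at 0. A list of 8 smooth muscle genes took 4.35% of curcumin-treated 1 and 0.0340% to 0.248% of the others. Diabetes 1 also had few genes with 1 to 5 counts, 1292 against 4216 to 19751. In whole tissue, fewer cells of a type and less RNA per cell cannot be told apart.

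Gpx5 (ENSMUSG00000004344) had the most counts of all genes, not scaled by length, in 3 libraries and was nearly missing from another. Control 1 held 29812 CPM, the diabetic libraries 31116 and 0.0788 CPM, and the curcumin-treated libraries 19.6 and 55412 CPM, each pair in the order of replicates 1 and 2. It ranked first of all genes in control 1, diabetes 1 and curcumin-treated 2, with 1 library of each group among them, and the groups overlapped throughout. In these 3 it took 2.98% (95% Wilson interval up to 2.99%), 3.11% (up to 3.12%) and 5.54% (up to 5.55%) of all counts. Diabetes 2 held 2 counts of it. Control 1 was 378281 times above diabetes 2, with a 95% Poisson interval of the 2 counts that spans 104719 to 3123580 times. Curcumin-treated 2 was 2828 times above curcumin-treated 1, its group partner (2600 to 3081 times from the 545 counts of the latter).

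Set against the epididymal list, Gpx5 was not in the same proportion everywhere. For every 100 counts of the 15 epididymal genes there were 61.2 counts of Gpx5 in control 1, 69.1 in diabetes 1 and 92.8 in curcumin-treated 2, but 0.325 in curcumin-treated 1. Diabetes 2 had 2 counts of Gpx5 to 12 of the list, or 16.7 to 100. In curcumin-treated 1 Crisp1, a cysteine-rich secretory protein of the epididymal duct, held 99.0% of the list at 5965 CPM. Lcn5 and Lcn8, lipocalins of the duct lumen, stood at 8.41 and 4.57 CPM there. Crisp1 was at 2610 CPM in control 1, 1700 CPM in diabetes 1 and at 334 CPM in curcumin-treated 2, and had 0 counts in diabetes 2. With Crisp1 left out, a choice made after seeing these values, there were 33.8 counts of Gpx5 for every 100 of the other 14 genes in curcumin-treated 1 (545 to 1613 counts), and 64.7 in control 1, 71.8 in diabetes 1 and 93.3 in curcumin-treated 2. Curcumin-treated 1 held the most Crisp1 of the 5 libraries and only a trace of Gpx5. The part of the epididymal share in the differences of Gpx5 between groups was not tested.

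Gpx6 (ENSMUSG00000004341) had the same libraries on top at a far lower level. Control 1 held 30.4 CPM, diabetes 1 held 21.4 CPM, and the curcumin-treated libraries held 0.144 and 24.2 CPM. Diabetes 2 had 0 counts, which allows up to 0.118 CPM, the level of 3 counts. Control 1 was thus at least 257-fold higher than diabetes 2. For every 100000 counts of Gpx5 there were 102 counts of Gpx6 in control 1, 68.7 in diabetes 1 and 43.6 in curcumin-treated 2, so the ratio of this pair differed by more than 2-fold among the 3 libraries rich in both. Curcumin-treated 1 had 4 counts of Gpx6 to 545 of Gpx5.

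**Figure D1:**
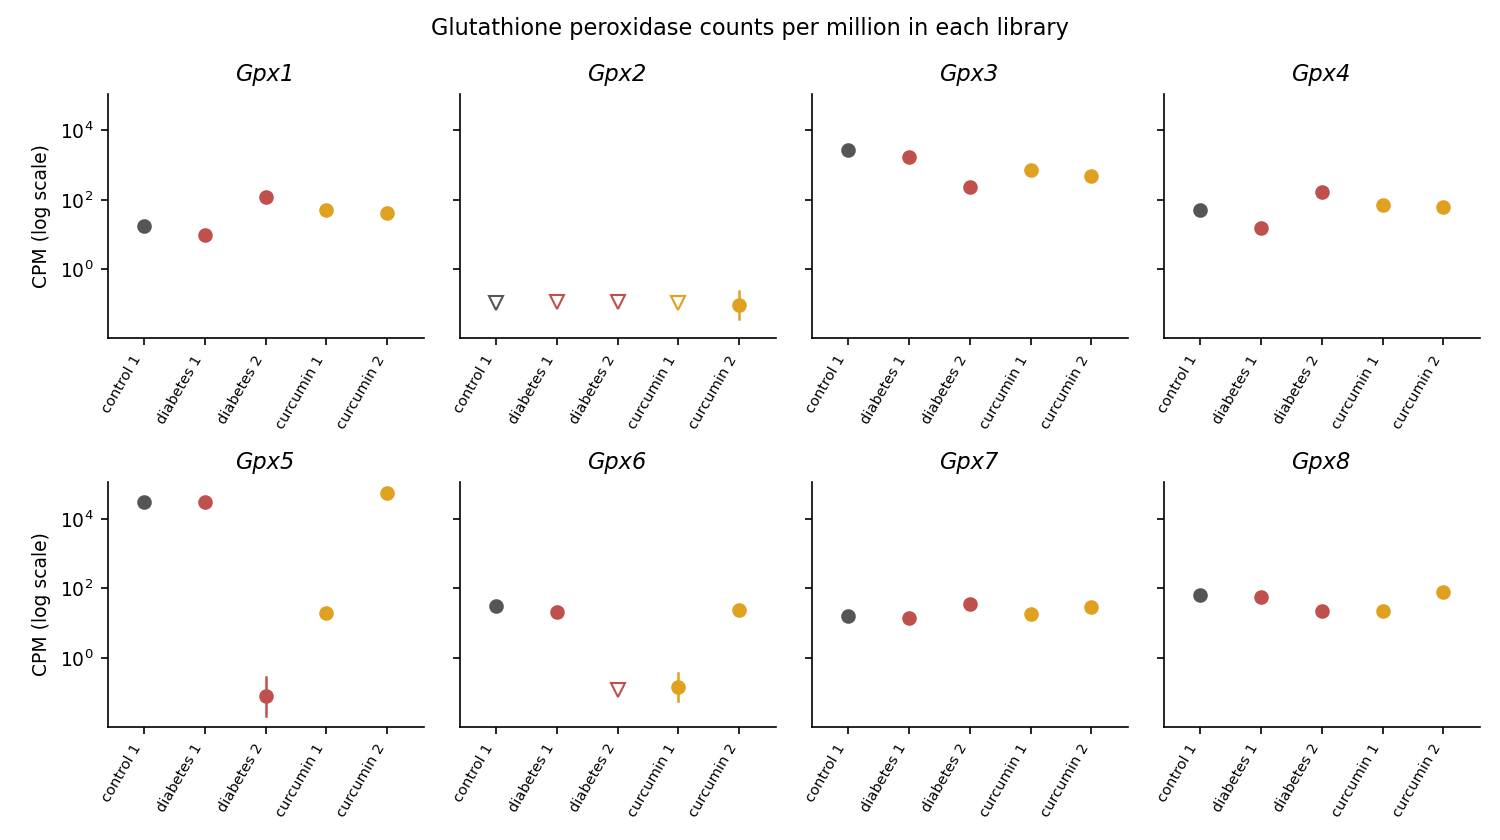
Counts scaled to the library total (CPM, log axis) of the 8 glutathione peroxidases in each of the 5 libraries, with 95% Wilson intervals that are mostly smaller than the points; open triangles mark the level of 3 counts where a library had 0. Gpx5 spans 0.0788 to 55412 CPM and Gpx6 shares its low libraries, while Gpx7 stays between 14.0 and 36.1 CPM.

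Gpx3 (ENSMUSG00000018339), the secreted selenoprotein, was second to Gpx5 in mean CPM over the libraries, and had the most counts of the family in diabetes 2 (39.6%) and curcumin-treated 1 (79.5%). It stood at 2681 CPM in control 1, at 1776 and 231 CPM in the diabetic libraries and at 729 and 501 CPM in the curcumin-treated ones. Control 1 lay above all others, and the curcumin-treated libraries lay between the diabetic ones. Its highest 2 libraries were rich in epididymal genes, yet curcumin-treated 2, with the largest epididymal share, held less Gpx3 than curcumin-treated 1. Gpx3 was thus not proportional to Gpx5: per kilobase of the longest annotated transcript, Gpx5 exceeded Gpx3 by 10.6 times in control 1, 16.7 times in diabetes 1 and 105 times in curcumin-treated 2. By the shortest coding transcript Gpx3 stood at 3869, 2562 and 723 CPM per kilobase there, against 1682, 1114 and 314 by the longest. The length of Gpx5 was the same, so these ratios were then smaller. In diabetes 2, the library with the largest adipocyte share, Gpx3 was lowest.

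Gpx1 (ENSMUSG00000063856) and Gpx4 (ENSMUSG00000075706), the intracellular selenoproteins, ordered the libraries alike, from diabetes 2 down to diabetes 1. Gpx1 followed the order diabetes 2 (124 CPM), curcumin-treated 1 (52.7 CPM), curcumin-treated 2 (42.4 CPM), control 1 (18.2 CPM) and diabetes 1 (9.47 CPM). Gpx4 had the same order, with 171, 73.9, 60.8, 50.3 and 15.8 CPM. The 2 diabetic libraries were the extremes for both genes, so both curcumin-treated libraries lay within the diabetic range. The sum of a list of 6 macrophage genes also had this order, with 0.168%, 0.0225%, 0.0133%, 0.00905% and 0.00809% of all counts. None of the 6 was at 0 anywhere. Singly, Mrc1 and Csf1r had it, while Cd68, Cd163 and Adgre1 were higher in control 1 than in curcumin-treated 2. Lyz2 was higher in diabetes 1 than in control 1. The summed adipocyte list had the top and bottom libraries of Gpx1 and Gpx4, with control 1 above curcumin-treated 2. The sum of a list of 5 endothelial genes had the order of the adipocyte list. It took 0.0236%, 0.00993%, 0.00957%, 0.00468% and 0.00246% of counts from its top library, diabetes 2, to its lowest, diabetes 1. Singly, Pecam1 and Cdh5 had this order, while Kdr, Tek and Emcn were higher in control 1 than in curcumin-treated 1. The part of these 3 cell types in the levels of Gpx1 and Gpx4 was not tested. Of all pairs of members but those with Gpx2, this pair had the closest profiles, with a root mean square difference of 0.36 between log2(CPM + 1) values centred on each gene's mean over the 5 libraries. The pair of Gpx5 and Gpx6 was at 4.30, since the span of Gpx5 is far wider.

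**Figure D2:**
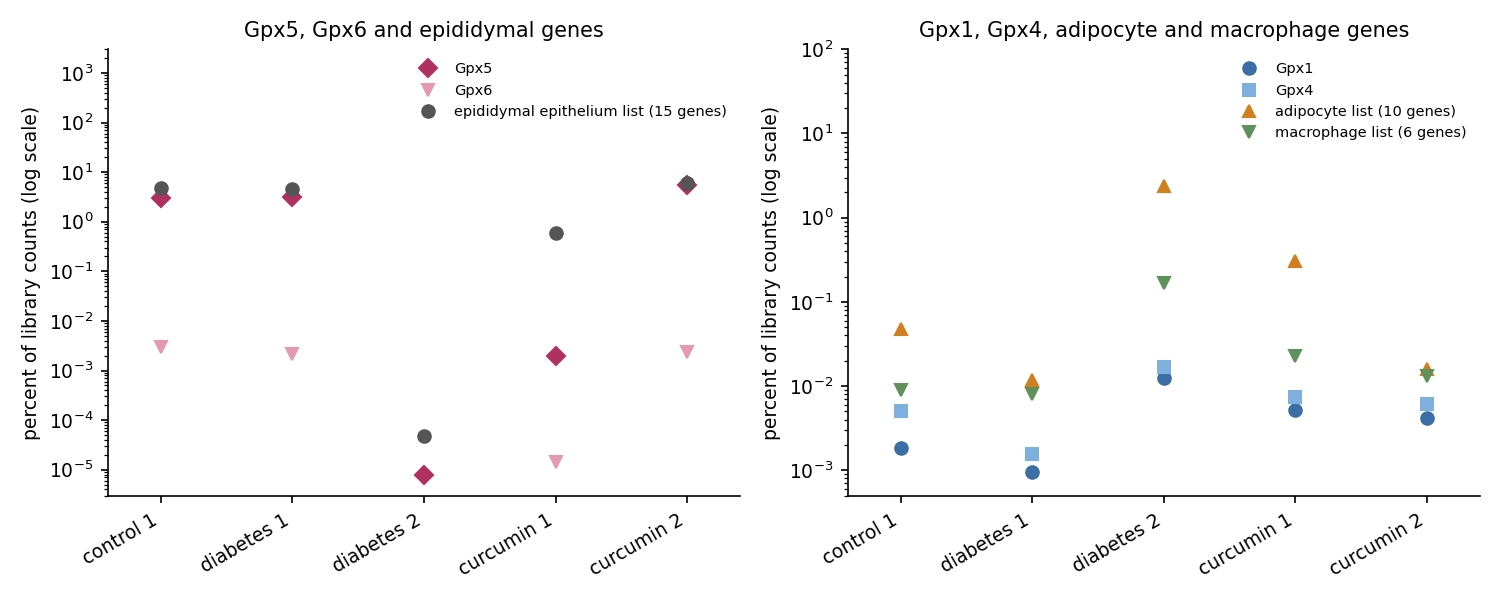
Percent of each library's counts (log axis) taken by Gpx5, Gpx6 and the 15-gene epididymal list (left) and by Gpx1, Gpx4, the 10-gene adipocyte list and the 6-gene macrophage list (right) in the 5 libraries; Gpx6 is not drawn for diabetes 2, where it had 0 counts. On the left, Gpx5 lies close under the epididymal list in control 1, diabetes 1 and curcumin-treated 2 and far below it in curcumin-treated 1, where Crisp1 holds 99.0% of the list; on the right, all 4 series peak in diabetes 2.

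The enzymes of the endoplasmic reticulum spanned the smallest range of the 7 tested members. Gpx7 (ENSMUSG00000028597), which hands oxidising power to protein disulfide isomerase, was at 16.5 CPM in control 1, and the diabetic libraries had 14.0 and 36.1 CPM, the curcumin-treated ones 18.7 and 28.3 CPM, a 2.58-fold span. Gpx8 (ENSMUSG00000021760), its membrane-bound relative, was at 65.3 CPM in control 1, and the diabetic libraries had 56.7 and 21.8 CPM, the curcumin-treated ones 22.8 and 78.0 CPM, a 3.59-fold span. Gpx8 was higher in the 3 libraries rich in Gpx5, whereas Gpx7 was highest in diabetes 2, and the groups overlapped for both in the curcumin comparison. Gpx2 (ENSMUSG00000042808), the gut enzyme, had 4 counts in curcumin-treated 2 (0.0943 CPM) and 0 in the others, which allows up to 0.118 CPM, and it did not pass the low-count filter.

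Levels of different members were compared per kilobase of transcript. In control 1, diabetes 1 and curcumin-treated 2 the order began with Gpx5, Gpx3 and Gpx8. In curcumin-treated 1 it was Gpx3, Gpx4 and Gpx1, and in diabetes 2 Gpx4 led Gpx3 at 171 against 145 CPM per kilobase, then Gpx1 at 116. With the shortest coding transcript as the length, Gpx3 led in diabetes 2, so the order of these neighbours is not fixed. Of the 40 ranks of members within libraries, 11 moved with this length. The 4 selenocysteine members summed to 1750 CPM per kilobase in control 1, 1139 and 432 in the diabetic and 581 and 415 in the curcumin-treated libraries. The cysteine members other than Gpx5 summed to 98.2, 81.2, 48.8, 36.5 and 115 CPM per kilobase in the same order of libraries. Gpx5 alone was at 17809, 18588, 0.0471, 11.7 and 33102 CPM per kilobase. The cysteine members together exceeded the selenocysteine members in the 3 libraries rich in Gpx5 and lay below them in diabetes 2 and curcumin-treated 1.

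**Figure D3:**
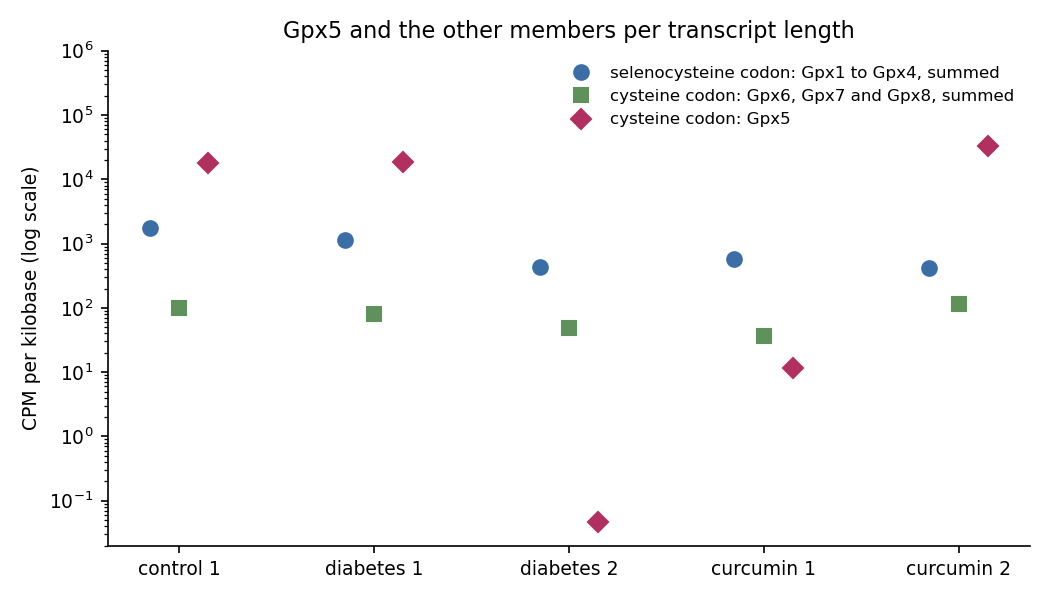
Levels per kilobase of the longest transcript (CPM per kilobase, log axis) of Gpx5 (diamonds), of Gpx1 to Gpx4 summed (circles) and of Gpx6, Gpx7 and Gpx8 summed (squares) in each library. Gpx5 lies above the selenocysteine members in control 1, diabetes 1 and curcumin-treated 2 and below both other classes in diabetes 2 and curcumin-treated 1.

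As a share of all glutathione peroxidase counts, Gpx5 held 91.2% in control 1, 94.3% and 0.0135% in the diabetic and 2.14% and 98.7% in the curcumin-treated libraries. Gpx3 held 93.7%, 93.8%, 39.6%, 81.3% and 68.2% of what remained without Gpx5. The family as a whole took 3.27%, 3.30%, 0.0584%, 0.0917% and 5.61% of all counts in these libraries. The log2 ratio of Gpx5 to the other members (with 0.5 added to both counts) was 4.04 and −12.53 in diabetes and −5.52 and 6.24 with curcumin, against 3.38 in control 1. Its group means differed by 4.61 (−4.25 ± 11.7 in diabetes and 0.36 ± 8.31 with curcumin, SD, n = 2 each), less than the spread within either group. The exact permutation test (two-sided) gave p = 0.667, where 2 against 2 libraries cannot go below 0.333. Without diabetes 2 the difference was −3.68 and without curcumin-treated 2 it was −1.27, so its direction rests on single libraries.

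The first comparison asked whether curcumin treatment goes with other levels of these enzymes in diabetes. No member differed beyond the spread between libraries: 0 of the 7 tested members passed edgeR's quasi-likelihood test at an adjusted p of 0.05, and 0% of all 29855 genes tested did. Unadjusted, 700 genes and 0 members had p under 0.05. DESeq2 called 95 genes, none of them a member, and limma-voom called 0. The libraries of both groups overlapped for all 7 members, whereas they did not overlap for 27.6% of all genes tested, 17.9% higher and 9.72% lower with curcumin. Gpx5 had a log2 fold change of 1.03 (SE 3.97), from 27716 ± 39169 CPM with curcumin and 15558 ± 22003 CPM in diabetes (SD, n = 2 each). Gpx3 had −0.65 (SE 1.04), from 615 ± 161 and 1003 ± 1092 CPM. Gpx1 had −0.60 (SE 1.15), Gpx4 −0.57 (SE 1.09), Gpx7 −0.12 (SE 0.70), Gpx6 0.38 (SE 2.69) and Gpx8 0.46 (SE 0.80). Adjusted p-values of members were 0.927 or more. The median was −0.12 over the 7 members and 0.052 over all genes tested.

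The sign of each of the 7 members turned when a single library was left out. Where a diabetic library was left out, the spread came from the curcumin-treated pair alone and the lone diabetic library was assumed to vary as much. Without diabetes 2, Gpx1 was at 2.41 and Gpx4 at 2.17, with an unadjusted p of 0.0183 and 0.0225 and an adjusted p of 0.633 for both in edgeR. Without diabetes 1, they were at −1.50 and −1.45, with an unadjusted p of 0.0462 and 0.0563 and an adjusted p of 0.528 for both in edgeR. For Gpx3 the value without diabetes 1 was 1.29. Gpx5 was at 18.35 without diabetes 1 and 0.036 without diabetes 2, Gpx6 at 11.65 without diabetes 1 and −0.61 without diabetes 2, and without curcumin-treated 2 they were at −9.66 and −6.20. Those of Gpx5 and Gpx6 without diabetes 1 rest on 2 and 0 counts and vary with the prior count. Gpx7 turned to 0.87 without diabetes 2 and 0.22 without curcumin-treated 1, and Gpx8 to −0.013 without diabetes 2 and −0.87 without curcumin-treated 2.

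Diabetes was then compared with the control, whose lone library was taken to vary as much as those of the replicated groups. Here too 0 of 7 members and 0% of 29855 genes passed edgeR's test, with 441 genes and 0 members at an unadjusted p under 0.05. DESeq2 called 58 genes and no member, and limma-voom called 0 genes. Control 1 lay outside the range of the diabetic libraries for 3 members, Gpx3, Gpx6 and Gpx8, all lower in diabetes, where 34.5% of all genes tested were lower in this way, 17.3% higher and 51.8% either. Gpx3 had a log2 fold change of −1.35 (SE 1.22), Gpx6 of −1.46 (SE 3.17), Gpx8 of −0.63 (SE 0.96) and Gpx5 of −0.90 (SE 4.68). Gpx1 was at 2.11 (SE 1.56), Gpx4 at 1.12 (SE 1.40) and Gpx7 at 0.80 (SE 0.88). The adjusted p was 1 for each in edgeR. Without diabetes 2 the value turned to −0.90 for Gpx1, −1.63 for Gpx4, −0.19 for Gpx7 and 0.10 for Gpx5. For Gpx3 it was −0.55 in this fit and −3.30 without diabetes 1. Both of these fits set 1 library against 1, with the spread taken from the curcumin-treated pair alone. Without diabetes 1 Gpx1 was at 3.01 and Gpx4 at 2.00, with an unadjusted p of 0.0129 and 0.0429 and an adjusted p of 0.498 for both in edgeR, and Gpx5 was at −18.22 and Gpx6 at −12.73. Gpx6 was at −0.47 without diabetes 2, and Gpx8 ran from −1.35 without diabetes 1 to −0.16 without diabetes 2. The median was −0.63 over the members and 0.070 over all genes tested.

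The third comparison set the curcumin-treated libraries against the same control. Again 0 of 7 members and 0% of genes passed edgeR's test, with 113 genes and 0 members at an unadjusted p under 0.05, 77 genes and no member called by DESeq2 and 0 by limma-voom. Control 1 lay outside the range of both curcumin-treated libraries for 5 members, below them for Gpx1, Gpx4 and Gpx7 and above them for Gpx3 and Gpx6, as it did for 58.6% of all genes tested (24.6% higher and 34% lower with curcumin). Gpx3 had a log2 fold change of −2.00 (SE 1.21), Gpx1 of 1.52 (SE 1.51), Gpx7 of 0.68 (SE 0.88), Gpx4 of 0.55 (SE 1.36), Gpx6 of −1.08 (SE 3.18) and Gpx8 of −0.18 (SE 0.97), and edgeR's adjusted p was 1 throughout. Leaving out each diabetic or curcumin-treated library in turn gave −2.18 to −1.86 for Gpx3, 1.46 to 1.55 for Gpx1 and 0.51 to 0.57 for Gpx4. Gpx7 was at 0.20 without curcumin-treated 2 and 1.02 without curcumin-treated 1, and Gpx6 at −7.66 and −0.091. Gpx5 was at 0.14 (SE 4.84), with a sign that turned to −0.11 under scaling to the library total. Without curcumin-treated 2 the value of Gpx5 was −10.56, and without curcumin-treated 1 that of Gpx8 was 0.49. The median was 0.14 over the members and 0.17 over all genes tested. The 3 comparisons share libraries, so their values are not independent.

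**Figure D4:**
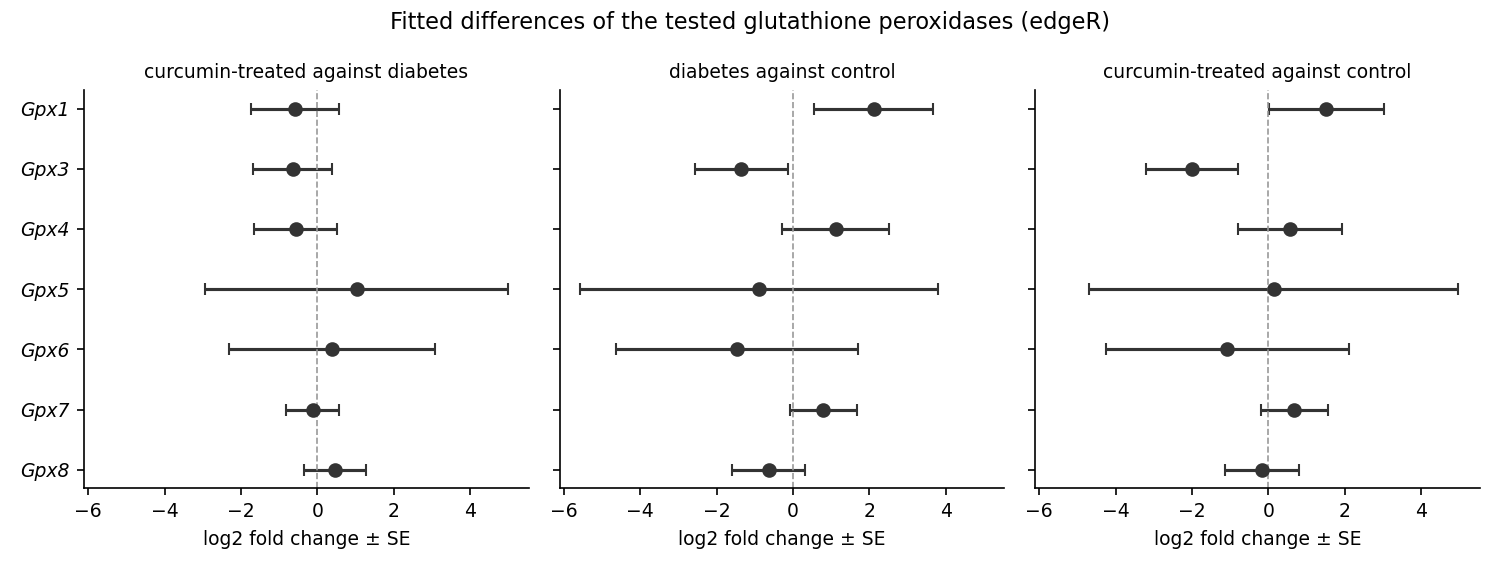
Log2 fold change (x axis, with its SE as the bar) of the 7 tested glutathione peroxidases in the 3 comparisons, from edgeR's fit of all 5 libraries; the dashed line marks no difference. The bars of Gpx5 and Gpx6 are the widest, with an SE of 3.97 and 2.69 in the curcumin comparison, and no member passed the test in any comparison.

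The genes whose profiles over the 5 libraries lay closest to Gpx5 included genes of the epididymal list. Among 10836 genes with a symbol and a mean of at least 10 CPM, the 5 nearest were Spag11b, Lcn8, Lcn5, Adam7 and Defb20, at a root mean square difference of 0.84, 0.88, 0.99, 1.16 and 1.21 on the centred log2(CPM + 1) scale. The median gene was at 6.55. Spag11b, an epididymal antimicrobial peptide gene, was at 8046 CPM in control 1, 8276 and 0.0394 CPM in the diabetic and 3.31 and 10935 CPM in the curcumin-treated libraries, so its high and low libraries were those of Gpx5. For Gpx3 the nearest were Slc52a3, a riboflavin transporter (0.21), Slc38a4, an amino acid transporter (0.28), Atg4a-ps (0.32), Camsap3 (0.33) and the quinone reductase Nqo1 (0.34). No epididymal marker was among these 5. The measure also counts how far a gene spans, and Gpx3 spanned 3.53 on the log2(CPM + 1) scale against 15.65 for Gpx5. Genes that span as widely as most of the epididymal list cannot lie near Gpx3 by it. Their absence therefore does not tell whether they order the libraries as Gpx3 does. Nqo1 was at 39.4 CPM in control 1 and 28.6 CPM in diabetes 1 against 3.39 CPM in diabetes 2.

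Genes that supply glutathione did not all share a direction. None of the 11 genes of glutathione synthesis and uptake passed the test in any comparison. In the curcumin comparison 3 had a positive and 8 a negative fitted value (median −0.20 against 0.052 over all genes). Chac1, Chac2 and Gss, 3 of the 11, were lower with curcumin than in diabetes without overlap, and 0 were higher in this way. Of all genes tested, 9.72% were lower and 17.9% higher. Ggt1, which cleaves glutathione outside the cell, was at 241 CPM in control 1, 420 and 0.197 CPM in the diabetic and 8.41 and 264 CPM in the curcumin-treated libraries, high and low in the same libraries as Gpx5. Its relative Ggt5 went the other way, at 59.1 CPM in diabetes 2 and 1.73 to 11.7 CPM elsewhere. Slc3a2, the heavy chain of the cystine transporter, was at 523, 561 and 565 CPM in the libraries rich in Gpx5 and at 164 and 163 CPM in diabetes 2 and curcumin-treated 1. The subunits of the enzyme that makes the glutathione precursor, Gclc and Gclm, were lowest in diabetes 2, at 23.9 and 43.2 CPM. Chac1, which degrades glutathione inside the cell, was at 2.73 and 3.09 CPM with curcumin and 6.80 and 8.47 CPM in diabetes, without overlap (log2 fold change −1.40, SE 0.77, adjusted p = 0.852 in edgeR).

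Of 12 genes that keep glutathione and thioredoxin reduced, 0 passed in any comparison, and 6 were positive and 6 negative with curcumin (median 0.0053). G6pdx, the source of NADPH for glutathione reductase, was at 549 CPM in diabetes 2, 178 CPM in diabetes 1, 165 CPM in control 1 and 94.9 and 154 CPM with curcumin, so both curcumin-treated libraries lay below both diabetic ones (log2 fold change −1.58, SE 0.80, adjusted p = 0.852 in edgeR). Pgd, the next enzyme of the pentose phosphate path, and Me1, the malic enzyme, peaked in diabetes 2 at 612 and 406 CPM. The thioredoxins were flatter: Txn1 ran from 112 to 187 CPM and Txn2 from 104 to 154 CPM, both higher with curcumin than in diabetes without overlap (log2 fold change 0.51, SE 0.47, and 0.35, SE 0.45). The reductase Txnrd3 was at 32.8 CPM in control 1 and 11.9 to 21.3 CPM elsewhere.

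Selenoprotein genes outside the family gave no shared direction. Of 12 genes of selenium supply and selenoprotein synthesis and 14 other selenoprotein genes, 0 passed in any comparison. With curcumin 6 and 8 of them were positive (medians 0.050 and 0.065). Of the 12 supply genes, 4 were higher with curcumin than in diabetes without overlap and 1 was lower. Of the 14 others, 2 were higher in this way and 2 lower, where 17.9% of all genes tested were higher and 9.72% lower. Selenop, the plasma carrier of selenium, was at 1280 CPM in diabetes 2 and 51.0 to 167 CPM elsewhere. The synthesis factors were steadier: Sephs2, which makes the selenium donor, ran from 15.4 to 27.5 CPM, Sephs1 from 29.4 to 48.1 CPM, Trnau1ap from 35.0 to 70.8 CPM and Sepsecs from 10.5 to 38.9 CPM. Msrb1 and Selenow were highest in curcumin-treated 1, at 528 and 468 CPM, as was Selenom at 223 CPM against 12.7 to 30.1 CPM in the others. Selenof and Selenot, of the endoplasmic reticulum, were lower with curcumin than in diabetes without overlap, at 170 to 249 against 340 to 353 CPM and at 112 to 152 against 155 to 214 CPM (log2 fold change −0.75, SE 0.53, and −0.49, SE 0.47). The deiodinases Dio2 and Dio3 stayed under 3 CPM.

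Among the other peroxide and superoxide scavengers, Cat and Sod3 peaked in diabetes 2, as Gpx1 and Gpx4 did. None of these 10 genes passed in any comparison, and 3 were positive with curcumin (median −0.32) and 10 with diabetes (median 0.64 against 0.070 over all genes). In diabetes 2, 9 of the 10 lay above control 1, but in diabetes 1 only 4 did and 6 lay below. In both diabetic libraries 3 of the 10 lay above it, where 17.3% of all genes tested did. Catalase, Cat, was at 826 CPM in diabetes 2, followed by curcumin-treated 1 with 90.4 CPM, and at 26.2 to 30.6 CPM in the others. Extracellular superoxide dismutase, Sod3, was at 1100 CPM in diabetes 2, 120 CPM in curcumin-treated 1 and 10.5 to 33.5 CPM elsewhere. Both were highest in the 2 libraries with the largest adipocyte shares, which also had the largest macrophage and endothelial shares. The part of these cell types in the levels of Cat and Sod3 was not tested. Prdx6, a peroxiredoxin that can use glutathione, was lowest in curcumin-treated 1 at 205 CPM and ran from 487 to 700 CPM in the others. Prdx1 ran from 293 to 465 CPM and Sod1 from 226 to 337 CPM. Prdx5 was at 508 CPM in curcumin-treated 1 and, with 443 CPM, next highest in diabetes 2, against 185 to 223 CPM in the libraries rich in Gpx5.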

How the data were processed

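RNA from 5 libraries was sequenced as 150-base read pairs from a stranded poly-A kit, per the labels' protocols. The deposited values are raw whole-number counts for each Ensembl gene; FastQC, featureCounts and GRCm39 are named in the submitters' processing notes. The strand setting, annotation release and aligner were not given in the sources used here, so antisense overlaps are uncertain. Symbols matched 51486 of 78334 IDs (65.7%). Because the reference was GRCm38, no coordinates are given and transcript lengths and sequences come from GENCODE vM21.

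CPM used library totals of 25378046 to 42422890. Wilson intervals and the limit of 3 counts cover counting error only. Tests used edgeR 4.0.16 (R 4.3.3): filterByExpr (29855 genes kept), TMM, 1 quasi-likelihood fit of 3 groups (robust, 2 residual degrees of freedom, biological coefficient of variation 1.09), two-sided, Benjamini-Hochberg over all genes, threshold 0.05. SE is the log2 fold change divided by √F. Alternatives used DESeq2 1.42.0, limma 3.58.1 (voom), other scalings and filters, a replicate block, and leaving out libraries. The test was tested on simulated data with less spread between libraries than these have, so its yield at their spread is not known.

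The members and gene lists were chosen with earlier results of these data known. Named were all members; of each of 5 pathway lists (59 genes in all), the 4 genes highest in mean CPM and the 2 with the smallest p in each of the first 2 comparisons; the 5 genes nearest in profile to Gpx5 and to Gpx3; and genes of the marker lists. Those not given elsewhere were gut epithelium (5 genes, 0.00253% to 0.00488% of counts) and sperm and germ cells (7 genes, 9.71e-05% to 0.0199%).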

Additional observations from a re-analysis of the deposited data

How the results depend on the processing

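No member passed the threshold under any alternative run, with adjusted p-values from 0.498 to 1. The count of genes called was 0 in every edgeR and limma-voom fit; DESeq2 gave 95 for curcumin against diabetes, 58 for diabetes against control and 77 for curcumin against control. Whether replicate numbers pair the libraries could not be decided. Deviations of same-numbered diabetic and curcumin-treated libraries correlated at −0.41. With 2 libraries a group, the crossed pairing must give the same value with the other sign, 0.41. With the replicate block the count of calls stayed at 0 in each comparison; a crossed block, chosen after seeing the data, also called 0. In the curcumin-diabetes comparison the sign turned to 0.51 (limma-voom) and 0.45 (replicate block) for Gpx1, 0.40 and 0.36 for Gpx4 and 0.079 and 0.028 for Gpx7. With the replicate block Gpx4 was at −0.42 for diabetes against control and −0.058 for curcumin against control, and Gpx5 at −0.23 for the latter, where limma-voom gave −4.63 and scaling to the library total −0.11. With the same block Gpx3 was at −1.12 and Gpx1 at 0.89 for curcumin against control. The cause of these shifts was not tested. Leaving out 1 library gave, for curcumin against diabetes, −1.50 to 2.41 for Gpx1, −1.45 to 1.29 for Gpx3, −1.45 to 2.17 for Gpx4, −9.66 to 18.35 for Gpx5, −6.20 to 11.65 for Gpx6, −0.70 to 0.87 for Gpx7 and −0.87 to 1.17 for Gpx8. For diabetes against control it gave −0.90 to 3.01 for Gpx1, −1.63 to 2.00 for Gpx4, −18.22 to 0.10 for Gpx5 and −0.19 to 1.37 for Gpx7, and for curcumin against control −10.56 to 1.13 for Gpx5 and −1.51 to 0.49 for Gpx8. The log2 ratio of Gpx5 to the other members differed by −3.68 to 12.89. Leaving out control 1 leaves no control to compare. Other totals moved a member's CPM by 0.924 to 1.13 times. The limits are 2 libraries a group, 1 control and tissue markers that vary within groups; 0 to 4 counts bound Gpx2 and the low values of Gpx5 and Gpx6.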
